A study of Mus musculus with 3 samples.

Results

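The genes described here are 30 listed members of the autophagy and lysosome pathway, taken by symbol from the 32285 genes of the count tables. All 30 symbols were found. They fall into 7 roles. The initiation kinase complex has 5 members (Ulk1, Ulk2, Atg13, Rb1cc1 and Atg101), the class III phosphatidylinositol 3-kinase complex 5 (Becn1, Pik3c3, Pik3r4, Atg14 and Uvrag), the lipid supply and PI3P-binding step 3 (Atg9a, Wipi1 and Wipi2) and the conjugation machinery 7 (Atg3, Atg4b, Atg5, Atg7, Atg10, Atg12 and Atg16l1). The LC3 and GABARAP proteins have 5 members (Map1lc3a, Map1lc3b, Gabarap, Gabarapl1 and Gabarapl2), the cargo receptors 2 (Sqstm1 and Nbr1) and the lysosome 3 (Tfeb, Lamp1 and Lamp2).

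Autophagy encloses cytoplasm or organelles in a double membrane and delivers them to the lysosome for breakdown. A kinase complex starts the process under the control of nutrient sensors, a lipid kinase complex marks the forming membrane with PI3P, a pair of ubiquitin-like conjugation reactions attaches LC3 and GABARAP proteins to that membrane, and receptors bring cargo to it. In the marrow, autophagy is known for clearing mitochondria from maturing red cells, for granulocyte differentiation and for the upkeep of stem cells and B cells. A transcript level is not a measure of how much autophagy a cell performs.

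The study profiled marrow of femur and tibia from C57BL/6J mice by single-cell RNA sequencing (10x Genomics 3' chemistry) after a Ficoll-Paque density gradient. There was 1 library for each of 3 groups. Sham mice were the controls, MI mice had a myocardial infarction made by tying off the left anterior descending coronary artery, and MI-E mice had an infarction together with an agent that the labels give only as EMPA. The number of animals behind each library, their age and the time after surgery are not given in the sources used here, and with 1 library per group no difference between groups has a replicate check. No test was therefore made: values carry exact 95% intervals, which cover counting error only.

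The 3 libraries held 22857 to 25721 barcodes and 99657072 (Sham), 127330601 (MI) and 109451500 (MI-E) unique molecular identifiers (UMIs, counted RNA molecules). After filters and the removal of 12.8% to 15.1% of cells as doublets, 21273, 20459 and 19617 cells remained, with median depths of 2132, 3113 and 2582 UMIs. Pairs of libraries shared 156 to 176 barcode sequences. Cells were clustered without correction between libraries and named from marker genes, and 11 classes had at least 200 cells in every library. Neutrophil-like cells made up 12.2% of Sham cells, 32.8% of MI cells and 26.4% of MI-E cells. Some classes came from different clusters in different libraries. Of mature naive B-like cells, 90.9% of the Sham cells lay in a cluster led by Gpr183 and Fcer2a, and 88.1% of the MI cells and 79.1% of the MI-E cells in another led by Cd200 and Icosl. Of monocyte-like cells, 71.9% of the Sham cells lay in a cluster led by Ifi27l2a and Cx3cr1, and 73.0% and 62.4% of the MI and MI-E cells in another led by Saa3 and Ms4a8a. Differences between groups within these classes are differences between those clusters as well, and the 2 cannot be told apart.

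A level below is the number of UMIs of a gene per 1000000 UMIs of its class in a library (CPM), with values in the order Sham, MI and MI-E. A gene counted as measured when its mean over the 11 classes reached 10 CPM. Of the 30 members 29 did, and Atg10, the enzyme that passes Atg12 to Atg5, stayed below it at 9.62 CPM. Classes differed less for most members than for a typical gene: the ratio of the highest to the lowest class had a median of 3.57 over the 29 measured members and of 5.66 over all measured genes. For 18 of the 29 (62.1%) the same class was highest in each library, against 49.6% of all measured genes. For 12 of the 29 (41.4%) the lowest library of the top class stood above every library of every other class, against 29.6% of the 8618 genes measured. The summed level of the 30 members was highest in monocyte-like cells, at 2602, 2523 and 2612 CPM, and lowest in 4 classes that lay close together (T cell-like, erythroid-like, myeloid progenitor-like and stem and multipotent progenitor-like cells), between 1331 and 1504 CPM. CPM is a share of a class's molecules, so an order of classes by molecules per cell can differ. The median depth was 15763, 19508.5 and 18759 UMIs per cell in myeloid progenitor-like cells, against 3919, 4585 and 4496.5 in monocyte-like cells. The neutrophil genes S100a8 and S100a9 alone took 318864, 310372 and 295516 CPM in neutrophil-like cells, which lowers the CPM of other genes there. The plot of levels by class shows where each member was high.

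**Figure D1:**
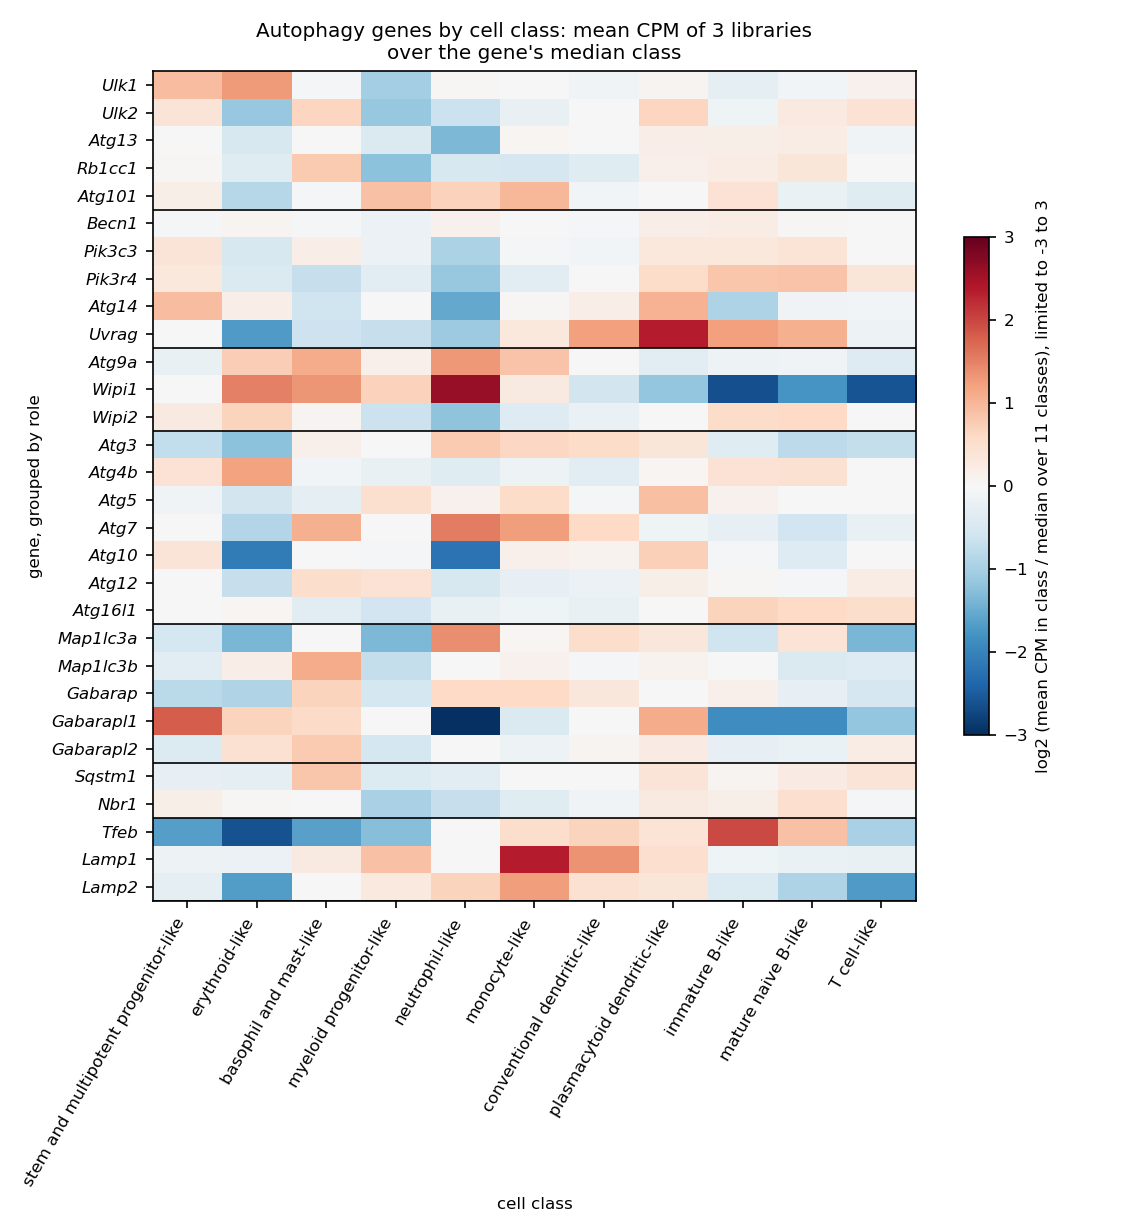
Level of the 30 members (rows, grouped by role) in the 11 classes (columns), as the log2 of the mean CPM over the 3 libraries relative to the median class, with colours limited at 3 in either direction. Uvrag stands out in plasmacytoid dendritic-like cells, Tfeb in immature B-like cells, Wipi1 in neutrophil-like cells, Gabarapl1 in stem and multipotent progenitor-like cells, and Lamp1 and Lamp2 in monocyte-like cells.

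In the initiation complex, Ulk1 and its close relative Ulk2 are the kinases, Rb1cc1 (FIP200) and Atg13 are their scaffold partners, and Atg101 stabilises Atg13. Ulk1 was highest in erythroid-like cells, at 55.3, 37.3 and 40.2 CPM, but the lowest of these values (37.3, interval 32.3 to 43.0) lay beside the highest of the stem and multipotent progenitor-like cells (37.0, interval 28.5 to 47.1). Ulk2 was low in erythroid-like cells, at 8.41, 9.48 and 8.10 CPM, and reached 27.2, 27.1 and 34.9 CPM in plasmacytoid dendritic-like cells. Of the counted molecules of both kinases, Ulk1 gave 86.8%, 79.8% and 83.2% in erythroid-like cells, against 37.8%, 46.6% and 44.9% in T cell-like cells and 43.7%, 42.5% and 40.9% in mature naive B-like cells. These are shares of 3' molecules, compared across classes and not read as a ratio of the 2 genes. Rb1cc1, the member of this role with the most counts, was highest in basophil and mast-like cells, at 108, 150 and 192 CPM, and lowest in myeloid progenitor-like cells, at 38.7, 32.9 and 39.3 CPM. Atg101 was near its top in monocyte-like cells (69.6, 73.1 and 70.4 CPM), myeloid progenitor-like cells (68.9, 66.9 and 61.6 CPM) and neutrophil-like cells (65.5, 51.2 and 57.8 CPM). Atg13 stood between 6.97 and 30.4 CPM, lowest in neutrophil-like cells.

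In the lipid kinase complex, Pik3c3 (VPS34) is the enzyme, Pik3r4 (VPS15) and Becn1 are its constant partners, Atg14 directs it to the forming autophagosome and Uvrag takes the place of Atg14 in a complex that serves endosomes and late autophagosomes. Becn1 was the flattest member, between 43.8 and 69.2 CPM in all 11 classes and 3 libraries. Uvrag was far from flat. It stood at 251 CPM (interval 232 to 271) in Sham, 218 (196 to 243) in MI and 244 (220 to 269) in MI-E in plasmacytoid dendritic-like cells, above conventional dendritic-like cells at 98.8, 97.0 and 136 CPM and B cells at 85.2 to 119 CPM. The lowest Uvrag levels were in erythroid-like cells, at 10.1, 16.4 and 16.9 CPM. Atg14, which Uvrag replaces, stood at 17.9, 25.2 and 21.8 CPM in plasmacytoid dendritic-like cells and at 17.5, 17.6 and 24.4 CPM in stem and multipotent progenitor-like cells, its 2 highest classes. Neutrophil-like cells were lowest for Atg14 (4.51, 2.91 and 3.55 CPM) and low for Pik3r4 (8.21, 6.06 and 8.70 CPM, with basophil and mast-like cells at 8.39 CPM in MI-E), and Pik3c3 stood at 12.2, 10.2 and 13.7 CPM there against 29.5, 31.0 and 32.4 CPM in mature naive B-like cells.

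Atg9a is the membrane protein whose vesicles seed the autophagosome, and Wipi1 and Wipi2 are PI3P-binding proteins, of which Wipi2 recruits Atg16l1. Wipi1 was highest in neutrophil-like cells, at 55.3 CPM (50.8 to 60.1), 60.4 (57.6 to 63.3) and 76.6 (72.9 to 80.6), and near its floor in lymphoid cells, at 2.39, 2.75 and 4.01 CPM in mature naive B-like cells and 1.84, 1.55 and 1.80 CPM in T cell-like cells, where they rest on 2, 2 and 3 molecules. In immature B-like cells of MI-E no Wipi1 molecule was counted among 47 molecules of both genes. Wipi2 was highest in erythroid-like cells (62.6, 55.1 and 61.8 CPM), mature naive B-like cells (52.7, 58.1 and 59.0 CPM) and immature B-like cells (55.6, 58.8 and 49.3 CPM), which overlap, and lowest in neutrophil-like cells (17.5, 12.9 and 18.1 CPM). The Wipi1 share of the 2 was 75.9%, 82.4% and 80.9% in neutrophil-like cells, 21.2%, 36.9% and 33.2% in monocyte-like cells, and 4.35%, 4.52% and 6.37% in mature naive B-like cells. In macrophage-like cells, which were too few in Sham and MI-E to enter the 11 classes (179, 304 and 166 cells), Wipi1 stood at 25.5, 56.1 and 47.3 CPM, with intervals of 13.2 to 44.5, 41.9 to 73.5 and 28.5 to 73.8. With that class included, neutrophil-like cells no longer stood above every other class. Atg9a was highest in neutrophil-like cells as well, at 39.5, 53.7 and 51.9 CPM, level with basophil and mast-like cells, which reached 53.5 CPM in MI. Atg9a shares its 3' end with the transcript model Gm29253 on the same strand, so its counts are uncertain.

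Within the conjugation machinery, Atg7 is the activating enzyme for Atg12 and for LC3, Atg3 and Atg10 are the enzymes that pass them on, Atg4b trims and recycles LC3 and GABARAP proteins, and Atg5, Atg12 and Atg16l1 form the complex that directs LC3 to the membrane. Atg3 had the most counts and was highest in neutrophil-like cells (123, 143 and 154 CPM) and monocyte-like cells (106, 135 and 135 CPM), against 26.9, 33.3 and 42.7 CPM in erythroid-like cells. Atg7 was highest in neutrophil-like cells as well, at 54.2, 42.5 and 60.6 CPM, against 46.1, 37.5 and 44.1 CPM in monocyte-like cells and 5.93, 10.1 and 13.3 CPM in erythroid-like cells. Erythroid-like cells were low for Atg5 too, at 12.0, 21.3 and 25.0 CPM, against 45.8, 47.8 and 66.1 CPM in plasmacytoid dendritic-like cells. The exception was Atg4b, which was highest in erythroid-like cells at 41.1, 56.7 and 63.8 CPM, just above the 40.9 CPM of immature B-like cells in MI-E. Atg16l1 was highest in B cells, at 40.4, 39.2 and 36.7 CPM in immature B-like and 28.5, 40.5 and 43.1 CPM in mature naive B-like cells, with T cell-like cells at 41.4 CPM in MI-E. Atg12 was highest in basophil and mast-like cells of Sham and MI (70.0 and 62.5 CPM) and in myeloid progenitor-like cells of MI-E (56.0 CPM). Atg10 stood at 11.6, 14.8 and 24.3 CPM in plasmacytoid dendritic-like cells and at 2.10, 1.96 and 2.60 CPM in neutrophil-like cells.

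LC3 and GABARAP proteins are coupled to lipid on the autophagosome membrane and hold the receptors there. Gabarap and Map1lc3b gave most of the molecules of this family. Map1lc3b was highest in basophil and mast-like cells at 386 CPM (353 to 422), 486 (446 to 529) and 440 (396 to 487), and the next class was erythroid-like in Sham (289 CPM), plasmacytoid dendritic-like in MI (248 CPM) and neutrophil-like in MI-E (213 CPM). Map1lc3b overlaps the transcript model Gm20388 at its 3' end on the same strand, so its counts are uncertain. Gabarap stood at 510 to 561 CPM in basophil and mast-like, neutrophil-like and monocyte-like cells, which overlap, and at 175 to 194 CPM in erythroid-like cells. Gabarapl2 was highest in basophil and mast-like cells, at 204, 166 and 171 CPM, with erythroid-like cells close behind in Sham at 196 CPM. Gabarapl1 had a pattern of its own. It was highest in stem and multipotent progenitor-like cells, at 70.0 CPM (57.2 to 84.8), 62.6 (51.4 to 75.4) and 90.4 (76.9 to 106), followed by plasmacytoid dendritic-like cells at 43.9, 47.1 and 46.8 CPM, and it was low in neutrophil-like cells, at 3.01, 1.86 and 3.05 CPM, and in B cells, at 1.05 to 9.80 CPM. It gave 12.4%, 12.2% and 18.03% of the molecules of the 5 family members in the stem and multipotent progenitor-like cells. Map1lc3a was highest in neutrophil-like cells at 45.0 CPM (40.9 to 49.3), 61.8 (58.9 to 64.7) and 54.8 (51.7 to 58.2), and low in erythroid-like (7.31, 10.4 and 6.13 CPM) and myeloid progenitor-like cells (10.4, 6.49 and 7.21 CPM). The macrophage-like cells outside the 11 classes stood at 36.1, 65.8 and 39.8 CPM for Map1lc3a, level with neutrophil-like cells.

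**Figure D2:**
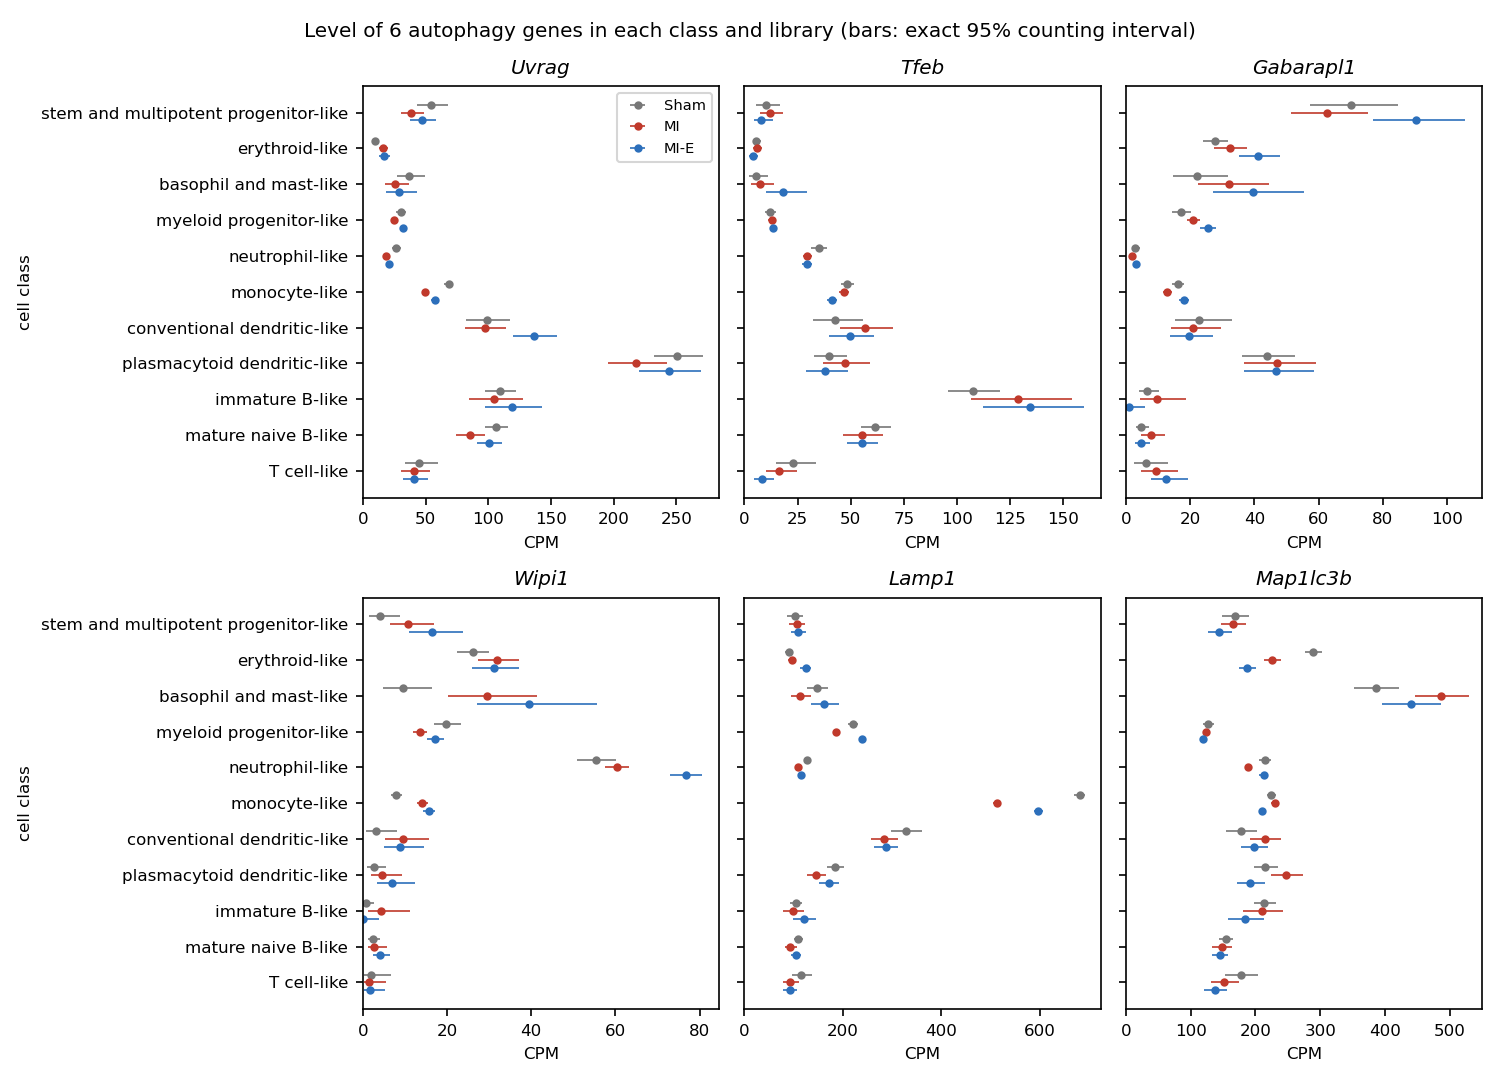
Levels (CPM, horizontal axes) of Uvrag, Tfeb, Gabarapl1, Wipi1, Lamp1 and Map1lc3b in each of the 11 classes (vertical axes) for Sham, MI and MI-E, with bars for the 95% counting interval. In each panel all 3 libraries of the top class have higher levels than any other class, for example Uvrag at 218 to 251 CPM in plasmacytoid dendritic-like cells.

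Sqstm1 (p62) and Nbr1 bind ubiquitin-tagged cargo and LC3. Sqstm1 was highest in basophil and mast-like cells of MI and MI-E, at 103 CPM in both, but stood at 61.4 CPM there in Sham, near the 60.6 CPM of mature naive B-like cells. Nbr1 stood at 43.3, 48.7 and 47.7 CPM in mature naive B-like cells, level with plasmacytoid dendritic-like cells in Sham and MI-E (43.5 and 48.0 CPM), and was lowest in myeloid progenitor-like cells, at 19.2, 14.2 and 16.6 CPM.

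Tfeb is a transcription factor that drives lysosome and autophagy genes when nutrient signalling is low, and Lamp1 and Lamp2 are the abundant glycoproteins of the lysosome membrane. Tfeb and the Lamp genes were high in different cells. Tfeb was highest in immature B-like cells at 108 CPM (95.9 to 120), 128 (106 to 154) and 134 (112 to 160), above mature naive B-like cells at 61.6, 55.4 and 55.2 CPM and conventional dendritic-like cells at 42.7, 56.6 and 49.7 CPM. It was low in erythroid-like cells, at 5.65, 5.80 and 3.93 CPM. Lamp1 was highest in monocyte-like cells at 681 CPM (669 to 693), 514 (506 to 522) and 597 (588 to 606), against 328, 283 and 287 CPM in conventional dendritic-like cells. Lamp2 was highest in monocyte-like cells as well, at 216, 253 and 297 CPM, and lowest in erythroid-like cells (24.7, 37.5 and 38.0 CPM) and T cell-like cells (26.7, 39.4 and 33.0 CPM). Macrophage-like cells, outside the 11 classes, stood at 700, 525 and 647 CPM for Lamp1 and at 269, 235 and 306 CPM for Lamp2, level with monocyte-like cells. With them included, neither gene had a class above every other.

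The promoter table of RefSeq (build GRCm38.p6, 250 bases before to 50 bases after each listed start) held 24 of the 30 members. The E-box core CACGTG, which reads the same on both strands and is the centre of the sites that Tfeb and its relatives bind, was found in 5 of the 24 (20.8%): Lamp1, Atg3, Atg5, Atg7 and Atg14. Of all 27025 genes with a promoter listed, 8.09% held it. The only Atg7 promoter listed, chr6:114670846-114671145, lies inside the annotated gene, which begins at 114643097. The Atg14 promoter, chr14:47568385-47568684 on the minus strand, also lies inside its gene, which begins at 47570649. The only promoters listed for Atg4b, Wipi1 and Wipi2, which held no CACGTG, likewise lie inside their annotated genes. The sequence before the outer starts of these genes was not searched. The Lamp1 promoter held 4 copies, a number reached by 8 of 32851 promoters, and the Atg3 promoter 2. These 2 are shown because they hold the most copies among the members. Each runs 5' to 3' on the plus strand and ends before the start of the gene, with each CACGTG in capitals. The Lamp1 stretch is chr8:13158911-13159160, with copies that begin 61, 45, 28 and 15 bases before the RefSeq start, and the gene lies at chr8:13159161-13175338. The Atg3 stretch is chr16:45158579-45158784, with copies at 45158735-45158740 and 45158758-45158763. These begin 94 and 71 bases before the RefSeq start. That start lies inside the annotated gene, which is at chr16:45158785-45188538, so the copies are nearer to the annotated start than to the RefSeq start. A match of letters describes these stretches and shows neither binding nor regulation. Lamp1 and Tfeb levels did not have the same top class.
Lamp1: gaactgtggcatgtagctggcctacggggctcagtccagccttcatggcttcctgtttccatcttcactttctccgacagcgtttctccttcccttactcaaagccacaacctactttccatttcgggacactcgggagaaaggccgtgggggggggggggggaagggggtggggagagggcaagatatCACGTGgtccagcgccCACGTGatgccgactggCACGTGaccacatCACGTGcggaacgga
Atg3: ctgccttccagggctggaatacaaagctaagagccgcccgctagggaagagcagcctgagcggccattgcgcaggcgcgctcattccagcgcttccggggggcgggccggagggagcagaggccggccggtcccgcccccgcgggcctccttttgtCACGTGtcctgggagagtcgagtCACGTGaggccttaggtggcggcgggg

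Levels also differed between the clusters that make up a class. Erythroid-like cells came in 3 clusters: an early cluster led by Car1 and Klf1 with 11606 to 12020 UMIs per cell, a middle cluster led by Hemgn and Slc4a1 with 3846 to 4300, and a cluster led by Tmcc2, Tent5c and haemoglobin genes with 3177 to 3576. Map1lc3b stood at 163, 150 and 134 CPM in the first, 300, 268 and 243 CPM in the second and 500, 574 and 400 CPM in the third. Gabarapl2 had the same order, at 80.9, 64.5 and 49.5 CPM, then 218, 168 and 183 CPM, then 370, 315 and 330 CPM. Ulk1 stood at 19.0, 21.7 and 18.3 CPM in the first cluster and 145, 144 and 175 CPM in the third, and Rb1cc1 at 35.3, 33.8 and 32.6 CPM and 176, 176 and 240 CPM. Since total RNA per cell was lower in the third cluster, the molecules per cell give another view. Ulk1 had 0.228, 0.252 and 0.219 molecules per cell in the first cluster and 0.517, 0.494 and 0.556 in the third, higher in every library, while Map1lc3b went from 1.96, 1.74 and 1.60 to 1.79, 1.97 and 1.27 with no common direction. Gabarapl2 was higher per cell in the third cluster, at 1.32, 1.08 and 1.05 against 0.973, 0.748 and 0.592. Bnip3l, the receptor for removing mitochondria from red cells and no member of the list, had 1.54, 1.07 and 1.28 molecules per cell in the first cluster and 2.90, 2.81 and 3.32 in the third. Atg4b was lower in the third cluster than in the first, at 5.70, 7.58 and 10.9 CPM against 42.4, 56.4 and 64.9 CPM.

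Neutrophil-like cells came in 5 clusters, of which 4 were compared over the 3 libraries. These were led by Camp and Stfa1 (9270 to 10701 UMIs per cell), by Ltf (3847 to 4336), by Mmp9 (2889 to 3884) and by Cxcl2 (1611 to 2310). Map1lc3b was higher at each step of this order, from 93.8, 92.2 and 94.6 CPM to 147, 125 and 134, then 216, 185 and 218, then 458, 446 and 488 CPM. Gabarap stood at 326, 314 and 357 CPM in the first and 953, 807 and 868 CPM in the last, Ulk1 at 6.47, 7.32 and 10.7 and at 66.5, 31.2 and 46.4 CPM, and Atg7 at 25.5, 20.5 and 35.1 and at 103, 69.5 and 90.6 CPM. Per cell, Gabarap was lower in the last cluster (1.54, 1.86 and 1.85 molecules) than in the first (3.49, 3.06 and 3.31), and Map1lc3b stood at 1.00, 0.898 and 0.877 in the first and 0.738, 1.03 and 1.04 in the last. Wipi1 did not follow that order: it was lowest in the last cluster, at 29.6, 41.8 and 49.8 CPM, and reached 59.8, 74.7 and 94.5 CPM in the cluster led by Ltf. Map1lc3a was highest in the cluster led by Ltf in Sham and MI, at 69.1 and 91.9 CPM, and stood at 75.1 CPM there in MI-E. In the Mmp9 cluster it stood at 36.9, 85.4 and 76.9 CPM. The last cluster had only 84 cells in Sham. The fifth cluster, led by Slc7a11 and Ptgs2, held 1431 of the Sham cells but 35 and 81 of the MI and MI-E cells, and was left out of the order and of the plot. In Sham it stood at 351 CPM for Map1lc3b, 710 for Gabarap, 35.1 for Ulk1, 89.1 for Atg7, 49.8 for Wipi1 and 42.2 for Map1lc3a.

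**Figure D3:**
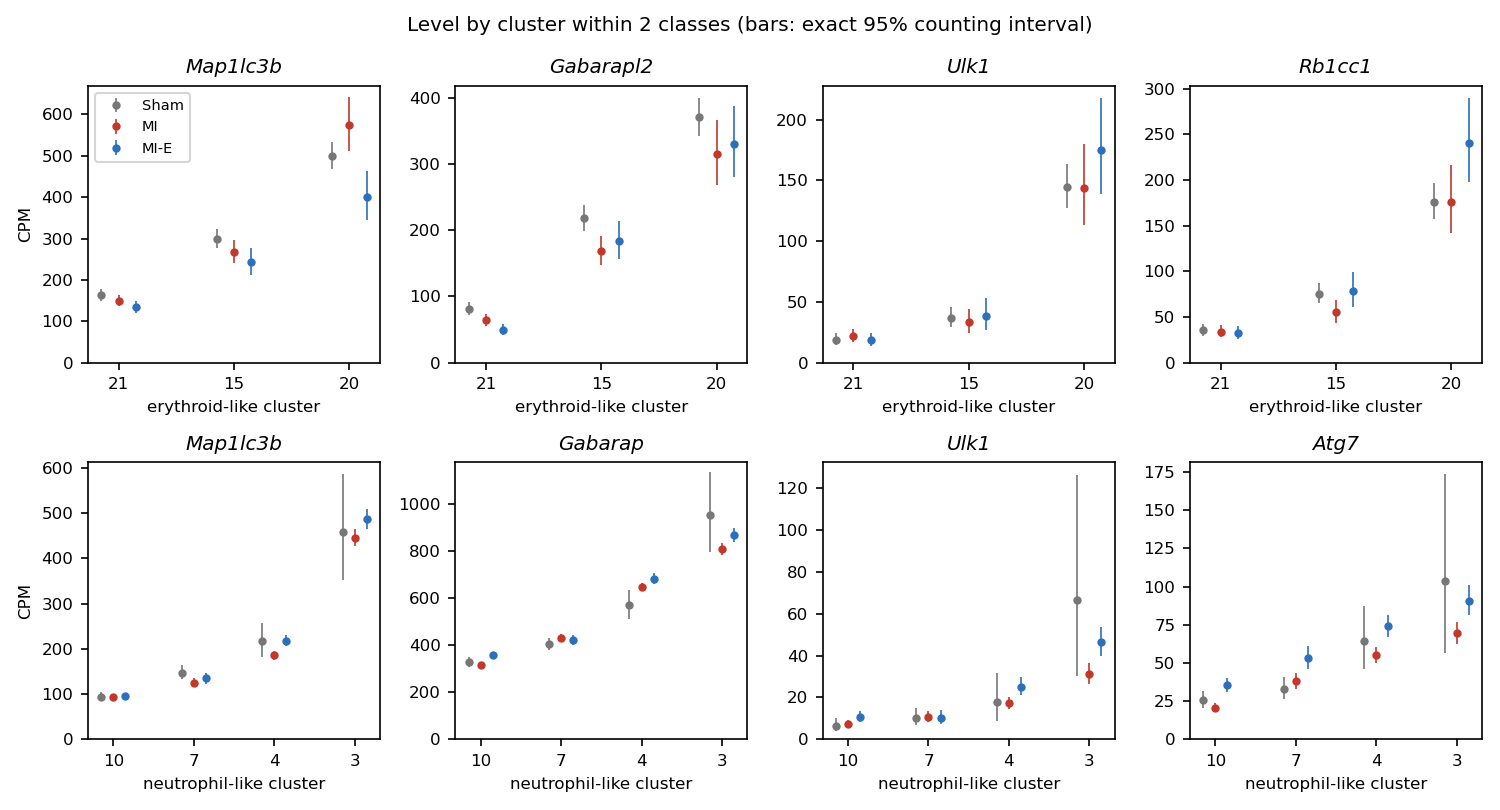
Levels (CPM) of 4 members in the erythroid-like clusters (Map1lc3b, Gabarapl2, Ulk1 and Rb1cc1) and 4 in the neutrophil-like clusters (Map1lc3b, Gabarap, Ulk1 and Atg7), with clusters along the horizontal axis in the order of the text, without the neutrophil-like cluster led by Slc7a11 and Ptgs2, and bars for the 95% counting interval. All 3 libraries are higher in the last cluster shown than in the first in every panel, as for Map1lc3b in erythroid-like cells, from 134 to 163 CPM to 400 to 574 CPM.

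Comparisons between groups ask whether the members differed after infarction (MI over Sham), with EMPA after infarction (MI-E over MI), and between MI-E and Sham, which share libraries with the other comparisons and are not independent of them. A ratio of levels of at least 1.5 in either direction counted as past the fold. Members past it were to be named where their mean reached 20 CPM, and those named below that mean were chosen after their values were seen. The members' median log2 ratios lay near those of all genes in most classes, as the plot of ratios by class shows.

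**Figure D4:**
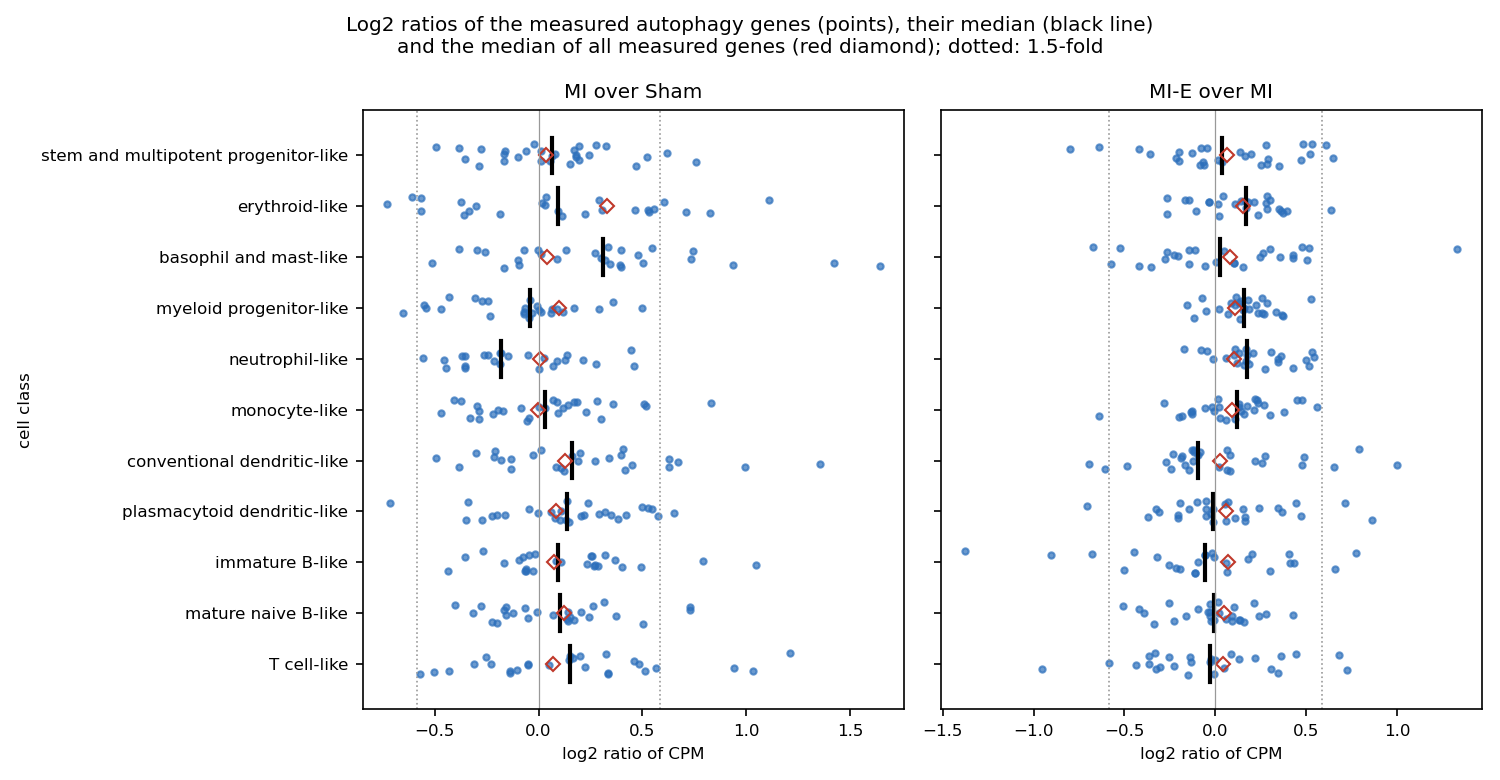
Log2 ratio of the level of each measured member (points) in the 11 classes, for MI over Sham and MI-E over MI, with the median of the members (black line), the median of all measured genes (red diamond) and the 1.5-fold limits (dotted). Most points lie inside the limits, and in neutrophil-like cells all 25 do in both comparisons.

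In neutrophil-like cells, 0 of the 25 measured members passed 1.5-fold in MI over Sham (9.82% of all genes did), in MI-E over MI (2.41%) or in MI-E over Sham (7.88%). In MI over Sham 15 of 25 were lower (2968 of all 6088 measured genes were), with a median log2 ratio of -0.18 against 0.01 over all genes, though the median was 0.08 with a stricter cell filter, and Uvrag had the lowest ratio, at 18.2 CPM in MI and 26.6 in Sham (ratio 0.681, interval 0.587 to 0.793). In MI-E over MI 21 of 25 were higher (4167 of all 6098 measured genes were), with a median of 0.17 against 0.10 over all genes. The 4 with the highest ratios were Rb1cc1 (1.46, 1.36 to 1.57), Ulk1 (1.45, 1.26 to 1.66), Atg7 (1.43, 1.32 to 1.55) and Wipi2 (1.41, 1.22 to 1.64), chosen after their values were seen. Wipi1 was higher in MI-E than in MI in the Camp, Ltf and Mmp9 clusters, with ratios of 1.33 (1.18 to 1.503), 1.27 (1.10 to 1.46) and 1.26 (1.11 to 1.43). A cluster led by Slc7a11 and Ptgs2 held 55.3% of the Sham neutrophil-like cells and 0.522% and 1.56% of those in MI and MI-E, and its part in the class-wide values was not tested.

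In monocyte-like cells, 1 of 29 measured members passed 1.5-fold in MI over Sham (13.9% of all genes), 1 of 30 in MI-E over MI (3.39%) and 1 of 30 in MI-E over Sham (11.7%). Map1lc3a was lower in MI-E than in MI, at 16.8 against 26.1 CPM (ratio 0.643, 0.574 to 0.719). Wipi1, below the mean for naming, stood at 14.1 CPM in MI and 7.94 in Sham (ratio 1.78, 1.48 to 2.15) and at 15.6 CPM in MI-E. The Lamp genes moved in opposite directions without passing the fold. Lamp1 was lower in MI than in Sham (ratio 0.755, 0.737 to 0.772) and Lamp2 higher (1.17, 1.13 to 1.22), and in MI-E over MI both were higher, at 1.16 (1.14 to 1.19) and 1.18 (1.14 to 1.21). In the larger cluster that all 3 libraries shared (22.5%, 22.5% and 31.5% of the class), Lamp1 stood at 605, 442 and 525 CPM and Lamp2 at 167, 203 and 232 CPM, the same directions. A smaller shared cluster, led by Ace and Cd300e, held 4.77%, 3.97% and 4.32% of the class and is not described here.

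In mature naive B-like cells, 2 of 26 measured members passed 1.5-fold in MI over Sham (11.6% of all genes), 0 of 27 in MI-E over MI (5.28%) and 1 of 26 in MI-E over Sham (11.9%). Map1lc3a was higher in MI than in Sham, at 35.4 against 21.3 CPM (ratio 1.66, 1.24 to 2.21), and Atg9a, below the mean for naming, stood at 22.8 against 13.8 CPM (1.66, 1.15 to 2.38). Under TMM scaling, which sets the typical gene level between libraries, neither passed. Atg16l1 was higher in MI-E than in Sham, at 43.1 against 28.5 CPM (1.51, 1.20 to 1.90), and did not pass under TMM or median-of-ratios scaling, another setting of the typical gene level. In immature B-like cells, 2 of 26 passed in MI over Sham (17.3% of all genes), 5 of 26 in MI-E over MI (16.1%) and 4 of 26 in MI-E over Sham (22.0%). Map1lc3a and Atg9a were again the 2 higher in MI, at 21.8 against 10.5 CPM (2.06, 1.11 to 3.76) and 20.7 against 12.0 CPM (1.73, 0.933 to 3.12), both below the mean for naming. Map1lc3a stood at 8.39 CPM in MI-E. Atg101 was lower in MI-E than in MI, at 31.5 against 58.8 CPM (0.535, 0.331 to 0.851), while Pik3r4 (1.58, 0.902 to 2.81) and Atg4b (1.71, 0.988 to 3.02) were higher with intervals that include 1. In MI-E over Sham, Atg101 was lower (log2 ratio -0.79) and Atg13 higher (0.68, not past the fold under either scaling). Rb1cc1 was higher in MI-E than in Sham, at 130 against 78.4 CPM (1.66, 1.32 to 2.08). It did not pass under either scaling, nor did Pik3r4 under TMM scaling. This class held 2844143, 918373 and 953490 UMIs, and with a stricter cell filter, which left 272, 15 and 11 cells in the class, 17 of 25 members passed in MI over Sham and 16 of 23 in MI-E over MI.

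In erythroid-like cells, 6 of 25 measured members passed 1.5-fold in MI over Sham (26.6% of all genes), 1 of 26 in MI-E over MI (7.34%) and 10 of 25 in MI-E over Sham (41.1%). The median log2 ratio of the members in MI over Sham was 0.09, below the 0.33 of all genes. Gabarapl2 was lower in MI, at 118 against 196 CPM (0.604, 0.549 to 0.665), and in MI-E, at 110 CPM (0.562 of Sham, 0.505 to 0.626). Rb1cc1 was lower in MI, at 54.2 against 82.6 CPM (0.656, 0.567 to 0.757), and Map1lc3b in MI-E, at 187 against 289 CPM (0.648, 0.595 to 0.704). Lamp2 was higher in both, at 37.5 and 38.0 against 24.7 CPM (1.52, 1.23 to 1.87, and 1.54, 1.23 to 1.92). Atg3 (1.59, 1.29 to 1.96), Atg4b (1.55, 1.31 to 1.84) and Atg16l1 (1.67, 1.30 to 2.15) were higher in MI-E than in Sham. The third cluster, where Map1lc3b, Gabarapl2, Ulk1 and Rb1cc1 were highest and Atg4b lowest, held 37.3% of the Sham class and 20.2% and 23.9% of the MI and MI-E class. Within the clusters, Rb1cc1 in MI over Sham stood at 33.8 against 35.3 CPM in the first, 55.1 against 75.5 CPM in the middle (0.730, 0.552 to 0.957) and 176 against 176 CPM in the third. Map1lc3b in MI-E over Sham stood at 0.821 (0.716 to 0.941) in the first, 0.811 (0.694 to 0.946) in the middle and 400 against 500 CPM in the third. Within the first cluster Gabarapl2 was lower in MI (0.796 of Sham, 0.660 to 0.961) and MI-E (0.611, 0.492 to 0.756), and within the middle cluster in MI (0.772, 0.660 to 0.902). Within the middle cluster Lamp2 was higher in MI (2.07, 1.42 to 3.03), and within the first it stood at a ratio of 1.00. Scaling to the typical gene lowers every log2 ratio of this class by 0.31 to 0.33 in MI over Sham and by 0.47 to 0.49 in MI-E over Sham, and with it Lamp2, Atg3, Atg4b and Atg16l1 did not pass 1.5-fold in the comparisons named above.

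Basophil and mast-like cells had 5 of 28 measured members past 1.5-fold in MI over Sham (25.9% of all genes), all 5 higher (13.1% of all genes were higher), 2 of 28 in MI-E over MI (17.5%) and 7 of 27 in MI-E over Sham (31.0%), all 7 higher (18.7%). The median log2 ratio of the members was 0.31 in MI over Sham, against 0.04 over all genes. Sqstm1 was higher in MI, at 103 against 61.4 CPM (1.67, 1.24 to 2.26), as was Atg9a, at 53.5 against 32.3 CPM (1.66, 1.10 to 2.53). Wipi1 stood at 9.44, 29.4 and 39.5 CPM, a ratio of 4.19 (2.11 to 8.91) in MI-E over Sham. The abundant neutrophil genes S100a8 and S100a9, which can enter other cells' droplets as free RNA, stood at 1.40%, 4.92% and 4.01% of their neutrophil-like level in this class, and the same fractions of the neutrophil-like Wipi1 level come to 0.772, 2.97 and 3.07 CPM. The part of free RNA in the difference was not tested. Rb1cc1 (1.78, 1.41 to 2.25) and Gabarapl1 (1.80, 1.05 to 3.08) were higher in MI-E than in Sham. So were Sqstm1 (log2 ratio 0.75) and Nbr1 (0.65), of which Nbr1 did not pass 1.5-fold under either scaling.

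In the dendritic-like classes, conventional dendritic-like cells had 5 of 27 members past 1.5-fold in MI over Sham (23.0% of all genes), 5 of 29 in MI-E over MI (12.2%) and 5 of 29 in MI-E over Sham (22.5%). Lamp2 was higher in MI (164 against 106 CPM, 1.55, 1.247 to 1.92) and in MI-E (173 CPM, 1.63 of Sham, 1.33 to 2.02). Sqstm1 was higher in MI than in Sham (65.4 against 41.1 CPM, 1.59, 1.12 to 2.27) and lower in MI-E than in MI (43.0 CPM, 0.658, 0.481 to 0.896), so the MI library stood apart from the other 2. Lamp2 in both comparisons and Sqstm1 in MI over Sham did not pass 1.5-fold under TMM or median-of-ratios scaling. Pik3c3 was higher in MI than in Sham (log2 ratio 0.63), and did not pass under either scaling. Wipi2 was higher in MI-E than in MI (0.79), and Map1lc3a lower in MI-E than in Sham (-0.61). Plasmacytoid dendritic-like cells had 2 of 29 past in MI over Sham (16.5%), 3 of 29 in MI-E over MI (12.0%) and 2 of 29 in MI-E over Sham (16.5%). Nbr1 stood at 43.5, 26.5 and 48.0 CPM there, lowest in MI (0.609 of Sham, 0.415 to 0.878), and Pik3c3 was higher in MI than in Sham (1.57, 1.05 to 2.35), though not past the fold under either scaling. The log2 ratio of Nbr1 in MI-E over MI was 0.86. Pik3c3 was also higher in MI-E than in Sham (log2 ratio 0.63), again not past the fold under either scaling.

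Among T cell-like cells, 3 of 27 members passed 1.5-fold in MI over Sham (20.9% of all genes), 3 of 27 in MI-E over MI (12.1%) and 7 of 26 in MI-E over Sham (23.9%). Wipi2 was higher in MI than in Sham, at 49.5 against 25.7 CPM (1.92, 1.21 to 3.11), and Rb1cc1 in MI-E, at 111 against 62.5 CPM (1.78, 1.34 to 2.38). Pik3r4 was higher in MI-E than in MI (log2 ratio 0.73) and than in Sham (0.68), and Atg16l1 higher in MI-E than in Sham (0.59). For Pik3r4 and Atg16l1 the ratio over Sham did not pass 1.5-fold under either scaling. Stem and multipotent progenitor-like cells had 2 of 29 past in MI over Sham (15.1%), 4 of 29 in MI-E over MI (9.75%) and 2 of 29 in MI-E over Sham (16.7%), with Rb1cc1 at 66.7, 95.6 and 107 CPM (1.60 in MI-E over Sham, 1.251 to 2.07, and not past the fold under median-of-ratios scaling). In this class Atg13 was higher in MI than in Sham (log2 ratio 0.76). Nbr1 was higher in MI-E than in MI (0.65), and not past the fold under median-of-ratios scaling. Myeloid progenitor-like cells, the deepest class at a median of 15763 to 19508.5 UMIs per cell, had 1 of 26 past in MI over Sham (10.9%), 0 of 26 in MI-E over MI (1.73%) and 1 of 26 in MI-E over Sham (12.2%), all below the mean for naming.

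Some members kept a direction across classes without passing the fold in most. The 11 classes come from the same 3 libraries, so they are not replicates, and these counts move with the scaling of the totals. In MI over Sham, Atg9a and Atg13 were higher in at least 10 of the 11 classes (2 of 29 members; 12.1% of all genes), and Uvrag and Gabarapl2 lower (2 of 29; 3.64%). In MI-E over MI, Rb1cc1, Uvrag and Lamp1 were higher in at least 10 classes (3 of 29; 14.9%), Rb1cc1 in all 11, with ratios from 1.01 in mature naive B-like to 1.46 in neutrophil-like cells. Map1lc3a, Map1lc3b, Gabarapl2 and Atg101 were lower in 10 of 11 (4 of 29; 7.25%), so 3 of the 5 LC3 and GABARAP genes were among the 4. In MI-E over Sham, Becn1, Pik3c3, Pik3r4, Atg13, Atg4b and Lamp2 were higher in at least 10 (6 of 29; 23.8%), and Gabarapl2 was lower in all 11 (1 of 29; 4.92%), with ratios from 0.56 in erythroid-like to 0.92 in neutrophil-like cells.

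Map1lc3a was the measured member past 1.5-fold in the most classes in MI-E over MI, 4 of 11. It stood lower in MI-E in monocyte-like cells (0.643, 0.574 to 0.719), conventional dendritic-like cells (21.2 against 34.4 CPM, 0.617, 0.395 to 0.958) and plasmacytoid dendritic-like cells (20.6 against 33.6 CPM, 0.613, 0.384 to 0.967), and in immature B-like cells at 8.39 against 21.8 CPM. Within the monocyte-like cluster led by Saa3 it stood at 27.0 against 39.0 CPM (0.692, 0.604 to 0.792), and within the neutrophil-like cluster led by Cxcl2 at 26.0 against 35.5 CPM (0.732). As Map1lc3a was highest in neutrophil-like cells, free neutrophil RNA was set beside it. S100a8 and S100a9 stood at 1.08%, 7.05% and 3.97% of their neutrophil-like level in monocyte-like cells and at 0.274%, 1.34% and 0.692% in conventional dendritic-like cells, so they too were lower in MI-E than in MI. The same fractions of the neutrophil-like Map1lc3a level come to 0.484, 4.35 and 2.18 CPM in monocyte-like cells, where 21.5, 26.1 and 16.8 CPM were measured, and to 0.123, 0.826 and 0.380 CPM in conventional dendritic-like cells, where 32.4, 34.4 and 21.2 CPM were measured. The part of free RNA in these differences was not tested.

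Over all cells of a library together, 4 of 28 measured members passed 1.5-fold in MI over Sham (16.7% of all genes). Uvrag stood at 38.0 against 59.3 CPM (ratio 0.641) and Wipi2 at 25.2 against 39.5 CPM (0.639), while Atg9a stood at 38.2 against 24.3 CPM (1.57) and Wipi1 at 28.2 against 15.4 CPM (1.84). The unnamed and small classes together held a larger share of Sham cells than of MI cells. Over the cells of the 11 classes alone, which leaves them out, 2 of 28 passed (13.3% of all genes). These were Uvrag, at 37.7 against 61.7 CPM (0.611), and Wipi1, at 28.2 against 18.3 CPM (1.54), while Wipi2 stood at 24.9 against 34.9 CPM (0.716) and Atg9a at 38.2 against 26.8 CPM (1.42). Over the same cells with each class given its share of the Sham UMIs in both libraries, 0 of 28 passed (6.23% of all genes), and the ratios were 0.811 for Uvrag, 0.937 for Wipi2, 1.29 for Atg9a and 1.21 for Wipi1. For MI-E over MI the third measure gave each class its share of the MI UMIs instead. In that comparison 0 of 28 passed by any of the 3 measures (2.82%, 2.59% and 1.28% of all genes). In MI-E over Sham 2 of 29 passed over all cells (12.2%), Wipi1 (1.96) and Lamp2 (196 against 122 CPM, 1.61), 1 of 29 over the cells of the 11 classes (9.34%), Wipi1 (1.66), and 0 of 29 with Sham weights (6.50%).

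**Figure D5:**
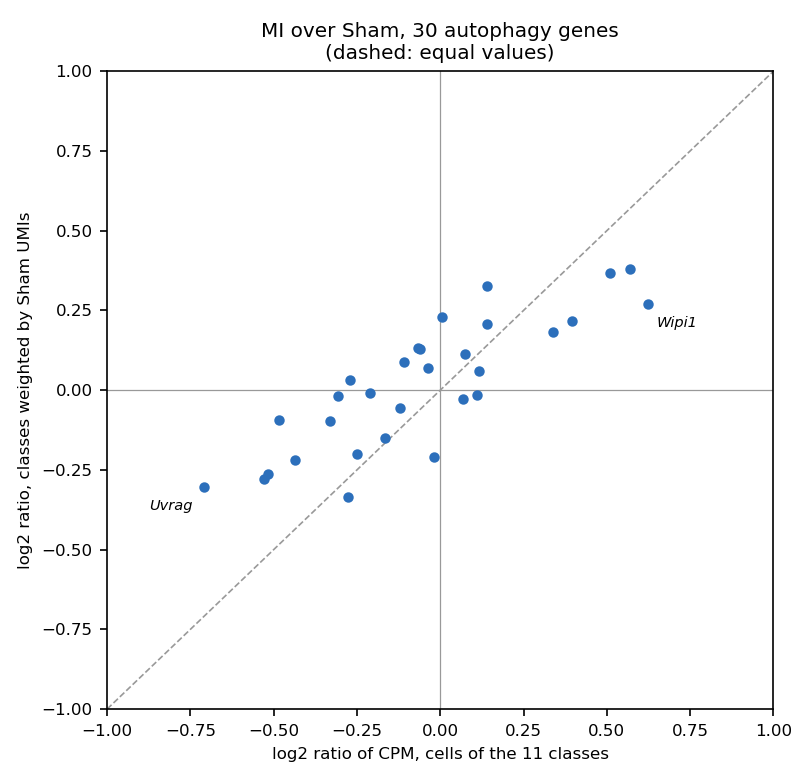
Log2 ratio of MI over Sham of the 30 members over the cells of the 11 classes (horizontal axis) against the ratio over the same cells with each class given its share of the Sham UMIs (vertical axis), with the 2 members past 1.5-fold along the horizontal axis labelled. Uvrag moves from -0.71 to -0.30 and Wipi1 from 0.62 to 0.27.

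The 7 lists of other genes of the pathway were read the same way, as counts past 1.5-fold in a direction, beside the share of all measured genes past it in that direction. Each list was read in 11 classes and 3 comparisons. Only some of these readings are given, chosen after their values were seen, so they do not describe the lists as a whole. In monocyte-like cells in MI over Sham, 9 of 41 measured lysosomal hydrolases and cofactors were lower (7.92% of all genes) and 1 higher, among them Hexa, the alpha subunit of beta-hexosaminidase, at 105 against 245 CPM (0.427, 0.408 to 0.446), and Arsb, arylsulfatase B, at 19.4 against 44.8 CPM (0.434). The 1 higher was Ctsl, the protease cathepsin L, at 101 against 38.3 CPM (2.64, 2.44 to 2.86). Hexa stood at 159 CPM in MI-E (1.51 of MI, 1.45 to 1.58). The lipid carrier Npc2 was lower in MI (0.447, 0.438 to 0.456), and 0 of the 17 V-ATPase subunits, which acidify the lysosome, passed in either direction. In mature naive B-like cells in MI over Sham, 6 of 29 genes of mTORC1, AMPK and nutrient sensing were higher (9.25% of all genes) and 0 lower. Ddit4, an inhibitor of mTORC1, stood at 59.7 against 12.8 CPM (4.68, 3.47 to 6.37) and Sesn1, another, at 136 against 50.7 CPM (2.68, 2.27 to 3.17). In immature B-like cells 8 of 29 of that list were higher (11.1%) and 0 lower, with Ddit4 at 73.0 against 12.0 CPM (6.10, 3.98 to 9.51). In erythroid-like cells in MI over Sham, 2 of 14 receptors and mitophagy genes were lower (4.62%), Ncoa4, the ferritin receptor, at 62.5 against 122 CPM (0.512, 0.449 to 0.582) and Bnip3l at 195 against 333 CPM (0.586, 0.544 to 0.631), and 1 was higher, Tollip (1.57). Bnip3l and Ncoa4 were highest in the third erythroid-like cluster, at 812 and 282 CPM in Sham against 128 and 24.1 CPM in the first. Within the clusters, Bnip3l in MI and Sham stood at 92.1 and 128 CPM in the first, 196 and 248 CPM in the middle and 821 and 812 CPM in the third. Ncoa4 stood at 26.0 and 24.1, 77.0 and 133, and 246 and 282 CPM in the same order. In neutrophil-like cells 1 of 24 other machinery genes was higher in MI-E than in MI (1.51%), Atg2a, a lipid transfer protein, at 40.2 against 25.0 CPM (1.61, 1.45 to 1.78), and the stress gene Trp53inp1 stood at 82.6 against 47.4 CPM (1.74, 1.62 to 1.87).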

How the data were processed

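The authors deposited, for each of the 3 libraries, whole-number UMI counts of 32285 genes by barcode, made with Cell Ranger 5.0.1 and mouse build mm10 per the submitters' processing notes. Their annotation release was not stated there. Groups came from the treatment labels. Cells with at least 300 genes, 500 UMIs and no more than 10% mitochondrial UMIs passed, and doublets were called against 2 simulated doublets per cell. Cells were clustered with scanpy 1.11.5 on 2000 variable genes, without immunoglobulin, T cell receptor, mitochondrial and ribosomal genes (40 components, 20 neighbours, leidenalg 0.10.2, resolution 1, seed 1), and B lineage cells were clustered again. No member was among the variable genes. Clusters were named from marker lists by a score over the 8 best markers, with at least 3 detected; that score was chosen after seeing the clusters, so another naming could move cells between classes.

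For each class and library the UMIs were added up and divided by the class total (CPM). A gene was measured at a mean of 10 CPM or more over the libraries compared. Rules fixed the members to be named at a mean of 20 CPM and a 1.5-fold ratio, beside the member with the largest mean CPM of each role. Members described for a top class above every other class were chosen after their values were seen. Levels carry exact Poisson intervals, shares of molecules exact Clopper-Pearson intervals in the tables, and ratios exact conditional binomial intervals, at 95%. Only the ratio intervals were tried on simulated data, for monocyte-like cells in MI over Sham. The simulated counts were Poisson, which the intervals assume, so other sources of spread were not covered. PCR duplicates are removed by UMIs, but cells of 1 library are not independent, so the intervals cover counting error only. Precision follows the UMIs of a class, for example 5012941, 2545828 and 3986160 in mature naive B-like cells. Positions of genes were looked up by identifier in GENCODE M21. The members, the other pathway lists and the naming rule were chosen with earlier results of these data known. Alternatives covered the cell filter, doublets, resolution, variable genes, separate clustering, depth, scaling, weights, minimum level and fold. Scaling without haemoglobin genes, the check of top classes under each alternative, and a minimum of 150 cells were added after seeing the data. B lineage cells of no named stage, and classes under 200 cells in any library, were left out of the 11 classes. Those of no named stage made up 17.5% of Sham cells, 1.39% of MI cells and 1.66% of MI-E cells. Large pre-B-like cells, also left out, made up 5.82%, 0.196% and 0.50%, and small pre-B-like cells 0.207%, 2.72% and 3.31%.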

Additional observations from a re-analysis of the deposited data

How the results depend on the processing

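With 1 library per group, no alternative replaces a replicate. No paired analysis was possible because each group has 1 library and no result comes from a test. Of the 46 named ratios of members, 42 kept their direction in each of the 12 alternatives that recomputed them, as far as the class existed there, and 4 turned. Those were Atg13 in immature B-like cells in MI-E over Sham (log2 ratio -0.29 with the stricter cell filter and -0.0045 with libraries clustered apart), Atg101 in the same class and comparison (0.14 with the stricter filter), Sqstm1 in basophil and mast-like cells in MI-E over Sham (-0.12 with cells thinned to 1000 UMIs) and Nbr1 there (-0.23 with cells weighted equally). The cause was not tested.

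Counts of members past 1.5-fold, given as MI over Sham and MI-E over MI, moved as follows. The stricter filter gave 6 for mature naive B-like cells (MI-E over MI), 17 and 16 for immature B-like cells, of which it kept 272, 15 and 11, and 1 for neutrophil-like cells (MI over Sham), whose median log2 ratio became 0.083. No doublet removal gave 4 (immature B-like), 1 (neutrophil-like) and 2 (monocyte-like), all MI over Sham, and leaving members out of the variable genes 4 (immature B-like, MI over Sham). No member was among the variable genes of the main setting, so that alternative, here and below, took no member out of them. Clustering libraries apart gave 2 (mature naive B-like, MI-E over MI), 5 and 3 (immature B-like) and 2 and 2 (monocyte-like). Thinning gave 3 (mature naive B-like, MI-E over MI), 5 and 8 (immature B-like), 1 and 1 (neutrophil-like) and 3 and 2 (monocyte-like). TMM scaling gave 0 (mature naive B-like, MI over Sham), and equal weights 1 (mature naive B-like, MI-E over MI), 2 (neutrophil-like, MI over Sham) and 3 and 2 (monocyte-like). A minimum of 20 CPM gave 1 (mature naive B-like), 0 (immature B-like) and 0 (monocyte-like) in MI over Sham and 3 for immature B-like cells in MI-E over MI. No minimum gave 1 (mature naive B-like, MI-E over MI), 5 and 9 (immature B-like) and 2 and 1 (neutrophil-like). At a smaller fold the counts were 5 and 5 (mature naive B-like), 7 and 10 (immature B-like), 9 and 8 (neutrophil-like) and 8 and 5 (monocyte-like). At 2-fold they were 0 (mature naive B-like, MI over Sham), 1 and 1 (immature B-like) and 0 and 0 (monocyte-like). At resolution 0.5 no immature B-like class was found.

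The 12 members with a class above every other numbered 8 to 15 in the alternatives. The log2 of the lowest top-class level over the highest of any other class fell under 0 for Ulk1 (-0.39 with the stricter filter, -0.013 without doublet removal, -0.046 at resolution 0.5 and -0.014 with members left out), Atg101 (-0.15 without doublet removal, -0.24 at resolution 0.5, -0.12 with more variable genes, -0.011 with members left out, -0.41 with libraries apart and -0.12 thinned), Atg4b (-0.22 without doublet removal, -0.36 thinned and -0.11 with equal weights) and Atg5 (-0.11 without doublet removal, -0.093 at resolution 0.5, -0.0496 with libraries apart and -0.54 thinned). It was -0.021 for Lamp1 with more variable genes, -0.099 for Map1lc3b with libraries apart and -0.00075 for Wipi1 thinned. With macrophage-like cells included, at a minimum of 150 cells, it was -0.0199 for Wipi1, -0.55 for Map1lc3a, -0.45 for Lamp1 and -0.51 for Lamp2. Uvrag and Gabarapl1 kept their top class in each of these alternatives, Tfeb in those with at least 200 immature B-like cells per library, and Map1lc3a and Lamp2 in all of these but the minimum of 150 cells.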
